A study of Mus musculus with 17 samples.

Results

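Enteroendocrine cells make hormones in the lining of the gut, and 10 genes that mark them were followed here through the differentiation of mouse small intestinal organoids with and without KPT-330, an inhibitor of the nuclear exporter XPO1. The 10 genes are Chga and Chgb, which encode chromogranin A and B of the secretory granule, Tph1, Tac1, Gcg, Cck, Sct, Sst, Ghrl and Gip, and they were chosen by symbol from the 26422 genes listed in the single-cell count tables. Organoids of C57BL/6 mice were profiled with Seq-Well S3, a microwell method in which each captured RNA molecule carries a unique molecular identifier (UMI). At day 0 there were 2 libraries of organoids in ENR+CV, which is EGF, Noggin and R-spondin 1 with CHIR99021 and valproic acid and keeps them enriched for stem cells. From day 0.25 to day 6, 7 control libraries came from organoids in ENR+CD, in which CHIR99021 is combined with the Notch inhibitor DAPT, and in 8 further libraries KPT-330 had been added to that medium at 160 nM. Control organoids were sampled once at days 0.25, 1, 2, 3 and 4, organoids with KPT-330 once at days 0.25, 1, 2 and 4, and each remaining condition from day 3 on has 2 libraries. All groups therefore share EGF, Noggin, R-spondin 1 and CHIR99021, and control and KPT-330 also share DAPT. Each library pools the cells of many organoids, and the labels do not say whether replicate numbers stand for separate cultures, so p-values measure only the spread between these libraries.

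Enteroendocrine cells arise from secretory progenitors that express Neurog3 when Notch signalling is low, and they then divide into kinds that store different products in granules. Enterochromaffin cells make serotonin, for which Tph1 is the rate-limiting enzyme, and often the tachykinins encoded by Tac1. Gcg encodes the precursor of glucagon-like peptides, Cck cholecystokinin, Sct secretin, Sst somatostatin, Ghrl ghrelin and Gip the glucose-dependent insulinotropic polypeptide. Single cells of the gut are known to carry RNA for more than 1 of these peptides.

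In the mm10 genome the members lie at chr12:102554969-102565028 (Chga), chr2:132781278-132795079 (Chgb), chr7:46644641-46672537 (Tph1), chr6:7554879-7565834 (Tac1), chr2:62474530-62483650 (Gcg), chr9:121489824-121495694 (Cck), chr7:141278330-141279133 (Sct), chr16:23889573-23890958 (Sst), chr6:113716119-113719880 (Ghrl) and chr11:96024545-96030831 (Gip). All 10 are annotated as protein-coding, on the plus strand for Chga, Chgb, Tac1 and Gip and on the minus strand for the others. The 250 bases before the RefSeq start site (GRCm38.p6) were searched on both strands for the cAMP response element TGACGTCA, the E-box forms CAGATG and CAGCTG, and TATAAA. The 250 bases are shown for Tph1, which fell with KPT-330, for the granule gene Chga, and for Gcg and Cck, which shared cells. Matches on either strand are in capitals.
Tph1, chr7:46672538-46672787, minus strand: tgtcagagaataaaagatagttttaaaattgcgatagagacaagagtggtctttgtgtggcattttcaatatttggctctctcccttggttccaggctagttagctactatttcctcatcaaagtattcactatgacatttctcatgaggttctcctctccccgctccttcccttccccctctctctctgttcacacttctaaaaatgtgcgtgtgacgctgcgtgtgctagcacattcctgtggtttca
Chga, chr12:102554691-102554940, plus strand: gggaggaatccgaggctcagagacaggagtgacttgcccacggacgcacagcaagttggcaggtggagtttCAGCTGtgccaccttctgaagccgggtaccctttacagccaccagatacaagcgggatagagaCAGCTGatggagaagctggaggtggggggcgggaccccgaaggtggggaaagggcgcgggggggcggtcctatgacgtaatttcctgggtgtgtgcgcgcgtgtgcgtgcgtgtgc
Gcg, chr2:62483654-62483903, minus strand: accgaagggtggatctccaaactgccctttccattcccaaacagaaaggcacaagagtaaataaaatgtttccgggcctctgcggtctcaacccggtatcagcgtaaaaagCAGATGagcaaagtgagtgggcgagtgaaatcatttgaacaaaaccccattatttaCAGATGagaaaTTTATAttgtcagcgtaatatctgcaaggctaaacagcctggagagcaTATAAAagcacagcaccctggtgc
Cck, chr9:121495695-121495944, minus strand: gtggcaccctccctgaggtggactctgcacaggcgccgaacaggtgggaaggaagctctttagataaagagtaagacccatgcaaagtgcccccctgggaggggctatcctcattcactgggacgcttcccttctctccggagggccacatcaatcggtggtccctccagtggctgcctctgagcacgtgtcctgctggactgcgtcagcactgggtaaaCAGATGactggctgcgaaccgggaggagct

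For Chgb and Tac1, which also fell, and for Ghrl, which rose in enteroendocrine-like cells, the 30 bases around the match are shown, since 250 and 182 bases of the windows of Chgb and Tac1 lie in exons of the GENCODE annotation.
Chgb, chr2:132781559-132781588, plus strand: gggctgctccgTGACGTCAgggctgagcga
Tac1, chr6:7554876-7554905, plus strand: cacaatttggtcCAGATGttatggactccg
Ghrl, chr6:113720127-113720156, minus strand, start site 2 of 4: gacctcagagctCAGCTGccaatccaccac

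The cAMP response element stood 72 bases before the start of Chgb and 48 before that of Sst, and 1.55% of 32851 RefSeq promoters held it in the same length. The E-box CAGATG stood before Tac1 (173 bases), Gcg (139 and 83), Cck (30) and Sct (242), and 14.4% of promoters held it. The E-box CAGCTG stood before Chga (179 and 116), Sct (132), Gip (46) and 1 of 4 start sites of Ghrl (233), and 13.0% of promoters held it. TATAAA stood before Gcg and Sct, and 12.4% of promoters held it. None of these letters was found before either start site of Tph1.

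The authors kept 19877 of 26229 barcodes, and the UMIs of these cells summed to between 3458887 and 12433109 in a library. Cells were clustered with the members and other hormones left out, and 2 clusters held 5 and 4 enteroendocrine markers among their top 10 genes. The Neurog3-led cluster (1172 cells, led by Neurog3, Miat and Neurod1) and the Scg2-led cluster (1037 cells, led by Scg2, Hdc and Cpe) are together called enteroendocrine-like, with 2209 cells. No deposited annotation was used, so this class may differ from that of the study. Their share of cells was 1.13% and 2.59% in ENR+CV and, at day 0.25, 1.84% in control against 1.28% with KPT-330. It was then 11.9% and 7.22% at day 1, 13.6% and 3.3% at day 2, and 16.03% and 11.1% at day 4, the control given first in each pair. At day 3 it was 22.9% in control against 6.84% and 9.13%, and at day 6 it was 19.97% and 19.1% against 6.45% and 23.2%. The Scg2-led cluster held 33.7% to 64.4% of the enteroendocrine-like cells in the 4 control libraries of days 3 to 6 but 39.0% to 94.9% in the 5 libraries with KPT-330, and at day 4 the Neurog3-led cluster held most of the class in control and the Scg2-led cluster with KPT-330 (39.9% against 80.9% Scg2-led). The Neurog3-led cluster held most of it in both conditions at day 3 and the Scg2-led cluster in both at day 6. In whole libraries, fewer cells of a type and less RNA per cell cannot be told apart.

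There were 3 libraries with KPT-330 that stood apart. At day 6, replicate 2 had a higher share of enteroendocrine-like cells than any other library with KPT-330. At day 6, replicate 1 and at day 3, replicate 1, 20.2% and 14.9% of the cells outside the enteroendocrine-like clusters held Chga UMIs when each cell was thinned to 2000 UMIs, against 3.53% to 12.5% in control libraries of days 3 to 6. Among the 9 late libraries, the summed level of 9 Paneth cell markers in enteroendocrine-like cells was 48.1 to 130 UMIs per 10000 UMIs in control and 68.8 to 256 with KPT-330, with no marker at 0. The 8 goblet markers summed to 8.89 to 15.8 and 7.93 to 24.6, and 9 enterocyte markers to 9.28 to 21.5 and 11.1 to 31.0, again with none at 0, and the part of these cells or of their free RNA in the results was not tested. The tuft markers summed to at most 0.121, with Il25 and Sh2d6 at 0 in both conditions. The 4 stromal markers summed to 1.14 to 2.74 in control and 0.208 to 0.455 with KPT-330, which do not overlap, with Col1a1 and Col3a1 at 0 in both conditions and Dcn at 0 with KPT-330, and their part in the results was not tested. Only 14 barcode sequences occurred in more than 1 library, in 28 cells.

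The members were concentrated in the enteroendocrine-like cells, although they had no part in the clustering. The share of a gene's UMIs that lay in these cells was lowest for Sct (83.9%) and Ghrl (86.7%) and highest for Tph1 (93.7%) and Gcg (95.5%) among the 9 members other than Sst. At 2000 UMIs per cell, Chga UMIs were found in 78.5% of enteroendocrine-like cells and 5.55% of the others, and Chgb UMIs in 72.7% and 8.16%. Without thinning, at median depths that ran from 2093 to 8514 UMIs per enteroendocrine-like cell and from 2791 to 8723.5 per other cell in the 17 libraries, these shares were 83.1% and 10.5% for Chga and 77.2% and 15.5% for Chgb. The 1060 cells with fewer than 2000 UMIs, of which 686 were from libraries with KPT-330 and 341 from control, do not enter the thinned values.

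Chga and Chgb were widespread among these cells, while each hormone belonged to few. In the Scg2-led cluster, 96.5% of thinned cells held Chga and 95.9% Chgb, against 63.8% and 53.7% in the Neurog3-led cluster. Sct was found in 39.3% of Scg2-led cells, Cck in 35.9%, Ghrl in 25.5%, Tac1 in 25.3%, Gcg in 18.0%, Tph1 in 11.5% and Gip in 6.26%. Of the cells outside both clusters, the share with Tph1 or a hormone other than Sst ran from 0.113% (Tph1) to 2.13% (Cck). Of the UMIs of Gcg, 95.2% lay in the Scg2-led cluster and 0.339% in the Neurog3-led cluster, and for Tph1 these shares were 62.1% and 31.6%. The 10 cells with the most UMIs held 6.32% of all Chga UMIs but 35.0% of those of Ghrl and 48.8% of those of Gip, so that levels of these 2 hormones in a library rest on few cells. Sst, which encodes the hormone of D cells, had 10 UMIs in 7 of the kept cells and was not tested.

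In organoids without drug, all 9 members that could be tested were far higher in the 4 late control libraries (days 3, 4 and 6) than in the 3 early libraries (ENR+CV day 0 and control day 0.25), which differ in time and for day 0 in medium. Chgb had 0.174 and 0.315 UMIs per 10000 UMIs in ENR+CV and 0.132 at day 0.25, then 2.49 at day 1, 7.01 at day 2, 23.0 at day 3, 26.7 at day 4 and 38.2 and 42.9 at day 6. Chga went from 0.0179, 0.0984 and 0.0576 in the early libraries to 0.531 and 2.05 at days 1 and 2 and 6.69, 7.33, 11.96 and 15.8 in the late ones. The late libraries lay above all early ones without overlap for both granule genes. In edgeR's quasi-likelihood test over 9 libraries, Chgb was higher by 7.39 ± 0.52 on the log2 scale (SE, adjusted p = 4.542e-06) and Chga by 7.52 ± 0.67. Of all 12844 genes tested, 25.6% were called higher late.

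The enzyme and the hormones rose in the same comparison. Gcg, for which no UMI was seen in the 3 early libraries or at day 1, reached 0.126 UMIs per 10000 UMIs at day 2, 1.24 at day 3, 3.41 at day 4 and 2.15 and 5.87 at day 6. With a floor of 3 counts over the early group, Gcg was at least 1782-fold higher late. Gip rose from 6 UMIs in the early libraries to 11575 in the late ones, a difference of 10.11 ± 1.54 on the log2 scale. Tac1 rose by 6.46 ± 0.53, Tph1 by 6.40 ± 0.68, Cck by 6.32 ± 0.98, Ghrl by 6.84 ± 0.94 and Sct by 5.20 ± 0.48, all past the threshold. With 1 control library a day before day 6, neighbouring days could not be tested against each other. The time course by library is shown for the 9 members.

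**Figure D1:**
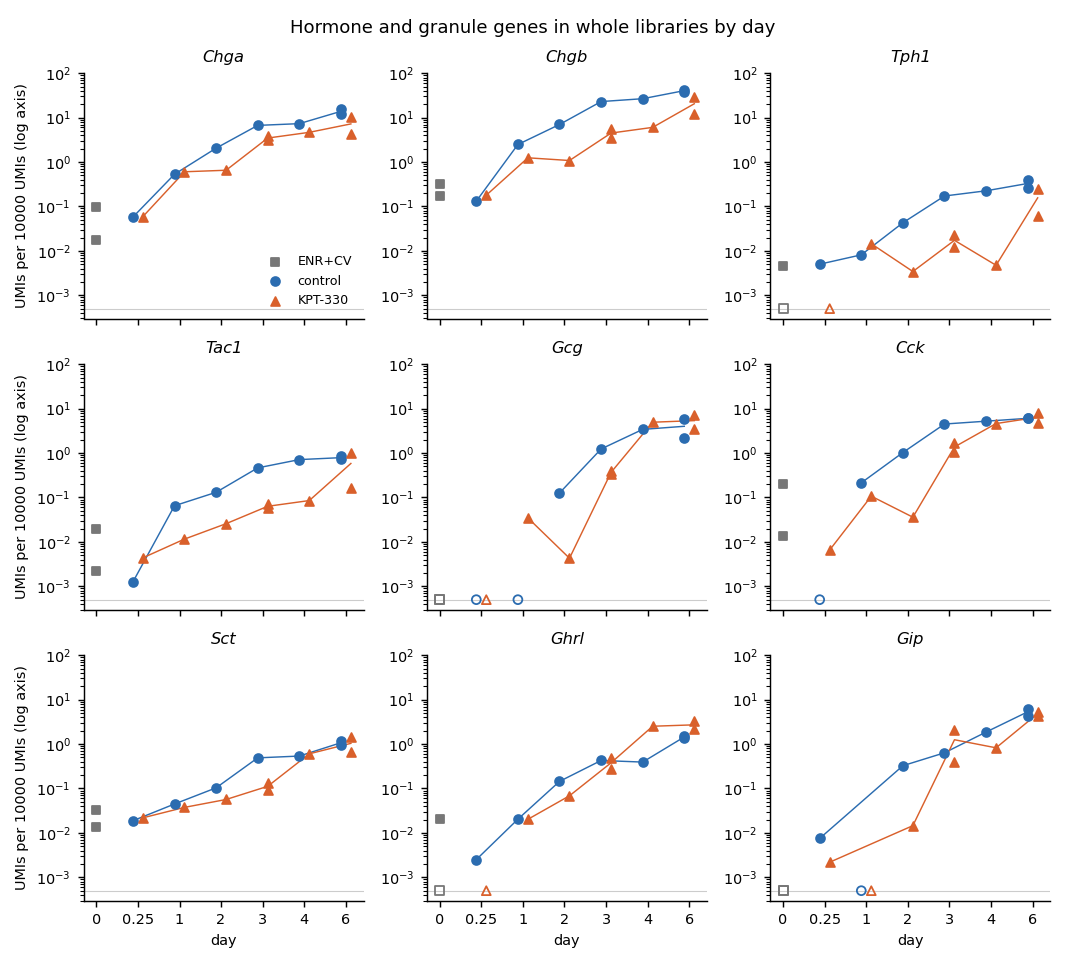
Level of each gene in UMIs per 10000 UMIs of a library (log axis) against day (evenly spaced, not to scale), 1 point per library, with lines through the mean of each day with UMIs and open points on the grey line for libraries with no UMI. All 9 genes climb by orders of magnitude from day 0.25 to day 6, and the libraries with KPT-330 lie below control from day 2 to day 4 for Chgb, Tph1 and Tac1 but above it at days 4 and 6 for Ghrl.

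KPT-330 lowered Chgb, Tph1 and Tac1 in whole libraries. These 3 of the 9 members tested were called lower and none was called higher, where 14.2% of 12812 genes were called lower and 14.4% higher. The median log2 fold change of the 9 members was -0.50 against -0.0023 for all genes tested, and 8 of 9 were below 0 against 50.3% of all genes.

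Chgb was lower with KPT-330 at 5 of 6 time points. The exception was day 0.25, with 0.132 UMIs per 10000 UMIs in control and 0.179 with KPT-330. The values in control and with KPT-330 were 2.49 and 1.25 at day 1, 7.01 and 1.08 at day 2, and 26.7 and 6.04 at day 4. At day 3 the control had 23.0 and the libraries with KPT-330 5.56 and 3.44, and at day 6 the controls had 38.2 and 42.9 against 12.2 and 28.9. Within each of these 5 days the conditions did not overlap. The difference was -1.24 ± 0.28 on the log2 scale (SE, 15 libraries, adjusted p = 0.00691 in edgeR), which is 2.37-fold lower, and Chgb was called in every alternative fit of whole libraries.

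Tph1, the enzyme of serotonin synthesis, showed the widest gap. In control it had 0.00814 UMIs per 10000 UMIs at day 1, 0.0430 at day 2, 0.172 at day 3, 0.225 at day 4 and 0.255 and 0.404 at day 6. With KPT-330 it had 0.0145 at day 1, 0.00343 at day 2, 0.0122 and 0.0223 at day 3, 0.00474 at day 4 and 0.0605 and 0.252 at day 6. At day 4 this is 158 UMIs in the control library and 2 with KPT-330. From day 2 on, every library with KPT-330 lay below every control library of its day, although at day 6 replicate 2 came within a narrow margin of the lower control. Tph1 was lower by -1.90 ± 0.46 on the log2 scale (adjusted p = 0.00902), 3.75-fold.

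Tac1, the tachykinin gene, followed Tph1. In control it had 0.0651 UMIs per 10000 UMIs at day 1, 0.131 at day 2, 0.464 at day 3, 0.713 at day 4 and 0.847 and 0.730 at day 6. With KPT-330 it had 0.0116 at day 1, 0.0257 at day 2, 0.0700 and 0.0566 at day 3, 0.0853 at day 4 and 0.166 and 1.00 at day 6. The libraries with KPT-330 were below control at days 1 to 4, whereas at day 6 replicate 1 lay below both controls and replicate 2 above both. Tac1 was lower by -1.47 ± 0.41 (adjusted p = 0.0178). Without the control library of day 3, which leaves that day out, only Chgb was called, with Tph1 at -1.51 (adjusted p = 0.0696) and Tac1 at -1.08 (adjusted p = 0.130). Without the 3 libraries that stood apart, which leaves out day 6, Chgb was lower by -1.59, Tph1 by -2.99 and Tac1 by -2.50, all called. These libraries were picked after the values were seen and include replicate 2 of day 6, highest in Tph1 and Tac1 with KPT-330. The choice itself favours larger falls, so this fit is no independent check.

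Chga, the companion of Chgb, was at -0.50 ± 0.18 and missed the threshold (adjusted p = 0.0546). With KPT-330 it was lower at days 2, 3, 4 and 6, at 0.654 against 2.05 at day 2 and 4.67 against 7.33 at day 4, and slightly higher at days 0.25 and 1. It passed the threshold in 10 of 22 alternative fits.

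The 5 peptide hormones other than Tac1 that could be tested were not called in whole libraries. Ghrl was at +0.98 ± 0.39 (adjusted p = 0.0721). Its level was 0.428 UMIs per 10000 UMIs in control against 0.480 and 0.279 with KPT-330 at day 3, 0.393 and 2.52 at day 4, and 1.54 and 1.36 against 3.24 and 2.19 at day 6. Ghrl was therefore higher with KPT-330 in every library of days 4 and 6. Cck was at -0.72 ± 0.47, with 1.03 against 0.0360 at day 2, 4.51 against 1.67 and 1.08 at day 3, and overlapping libraries at day 6. Sct was at -0.28 ± 0.27, Gip at -0.24 ± 0.58 and Gcg at -0.15 ± 0.52, and their adjusted p values ran from 0.469 to 0.858.

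The difference between the late (days 3, 4 and 6) and the early (days 0.25, 1 and 2) effect of KPT-330 was tested as an interaction. Of 12812 genes 0% were called in edgeR, while 1333 genes were at an unadjusted p under 0.05 and DESeq2 called 56, none of them a member. Gip (+4.48 ± 1.21), Cck (+2.64 ± 0.93) and Ghrl (+2.12 ± 0.85) were the 3 of 9 members at an unadjusted p under 0.05, with adjusted p of 0.279, 0.368 and 0.411.

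The share of cells with a UMI was compared as well. In cells thinned to 2000 UMIs, Chgb was found in 11.3% of control cells and 3.3% of cells with KPT-330 at day 2, 22.9% against 17.9% and 7.74% at day 3, and 23.9% against 13.3% at day 4. At day 6 the shares were 40.7% and 30.4% in control and 35.1% and 24.7% with KPT-330, which overlap. The log2 odds ratio of Chgb was negative at each of the 6 time points and averaged -1.01 ± 0.54 (SD, n = 6 time points, two-sided exact sign-flip test p = 0.031, the smallest that 6 time points allow). All 10 members entered this test, without adjustment. Tac1 (-1.02 ± 0.81) and Chga (-0.47 ± 0.47) were below 0 at 5 of 6 time points, each with exact p = 0.062. Tph1 was at -1.27 ± 2.35 (exact p = 0.25). Thinned to 1000 UMIs it was lower at 6 of 6 time points (-2.17 ± 1.53, exact p = 0.031), and without thinning at 5 of 6 (-2.46 ± 1.69, exact p = 0.062). With 0.5 cells added to each count, a gene found in no cell still gets a log2 odds ratio, set by the numbers of cells. At 1000 UMIs the day 1 value of Tph1 was -0.011, as for Sst (-0.011), so that day shows no fall. Ghrl was at +0.34 ± 0.46 (above 0 at 5 of 6, exact p = 0.125). Of its values above 0, that of day 0.25 (+0.336) is the one that Gcg, found in no cell that day, also had. At day 3 it was +0.0079.

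Within the enteroendocrine-like cells alone, KPT-330 lowered Chgb and Tph1 and raised Ghrl. This comparison of summed counts over 13 libraries of days 1 to 6 sets aside the number of such cells. Chgb was at -0.94 ± 0.20 and Ghrl at +1.65 ± 0.35 (adjusted p = 0.00811 for each), and Tph1 at -1.22 ± 0.32 (adjusted p = 0.0483). Thus 2 of 9 members were called lower, where 1.27% of 9230 genes were, and 1 higher, where 0.964% were. Tac1 was at -1.12 ± 0.31 (adjusted p = 0.0608).

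Chgb, relative to all UMIs of enteroendocrine-like cells, was lower with KPT-330 at 5 of 5 days. In control it had 24.1, 52.8, 115 and 181 UMIs per 10000 UMIs of these cells at days 1 to 4 and 206 and 259 at day 6. With KPT-330 it had 20.02 and 14.2 at days 1 and 2, 48.8 and 46.4 at day 3, 64.4 at day 4 and 155 and 179 at day 6. No day overlapped, but the call was lost without the control library of day 3 (adjusted p = 0.0714) or without day 4 (adjusted p = 0.0521). Tph1 lost its call in 14 of 20 alternative fits. Chga, by contrast, was at -0.01 ± 0.16 in these cells, with 33.3 in control against 34.5 and 43.2 with KPT-330 at day 3 and 47.9 and 52.9 at day 4, while at day 6 both libraries with KPT-330 (52.3 and 61.5) lay under both controls (63.2 and 93.4). The class joins 2 clusters that differ in Chga, at 23.5 UMIs per 10000 UMIs in Neurog3-led and 66.6 in Scg2-led cells. In Scg2-led cells alone Chga was at -0.41 ± 0.21 and not called (adjusted p = 0.559). There it was lower with KPT-330 on 2 of 3 days and higher on none. In Neurog3-led cells it was at +0.19 ± 0.17. The difference between the changes of Chga and Chgb was not tested.

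Ghrl, relative to all UMIs of enteroendocrine-like cells, was higher with KPT-330 at 4 of 5 days. In control it had 0.166, 0.998, 2.15 and 2.44 UMIs per 10000 UMIs at days 1 to 4 and 8.17 and 8.16 at day 6. With KPT-330 it had 0.251, 0.901, 3.75 and 3.85 (day 3), 30.7 (day 4) and 42.0 and 13.3 (day 6). The exception was day 2, and the highest values were those of day 4 and of replicate 1 of day 6. Without replicate 1 of day 6 Ghrl was at +1.22 (adjusted p = 0.0629), without replicate 2 of the day 6 controls at +1.58 (adjusted p = 0.0502), and by DESeq2 at +1.48 (adjusted p = 0.142). It lost its call in 4 of 20 alternative fits, these and the fit with cells chosen by a marker panel. As a share of thinned enteroendocrine-like cells, Ghrl was found in 16.7% of control cells and 44.4% with KPT-330 at day 4. Its odds were higher at 5 of 5 days (mean log2 odds ratio +1.06 ± 0.55, SD, exact p = 0.062, the smallest that 5 days allow). However, the 0.5 cells added to each count raise the ratio of a rare gene where fewer cells had KPT-330. Sst, found in none of these thinned cells, scored +1.54 with the same p, so this test cannot decide for Ghrl. Tac1 was lower at 5 of 5 days in the same measure (-0.999 ± 1.11, exact p = 0.062).

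The remaining hormones of these cells, Gcg (+0.58 ± 0.38), Gip (+0.28 ± 0.77), Sct (+0.14 ± 0.22) and Cck (+0.08 ± 0.35), were not called. Gcg had 23.9 UMIs per 10000 UMIs in control against 56.6 with KPT-330 at day 4, and 12.01 and 35.7 against 49.5 and 45.6 at day 6. Gip had 0.0182 and 32.2 in the 2 libraries with KPT-330 at day 3, on either side of the control (3.21). Its UMIs lay in few cells, and 1 cell of the second library held 912 of them.

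**Figure D2:**
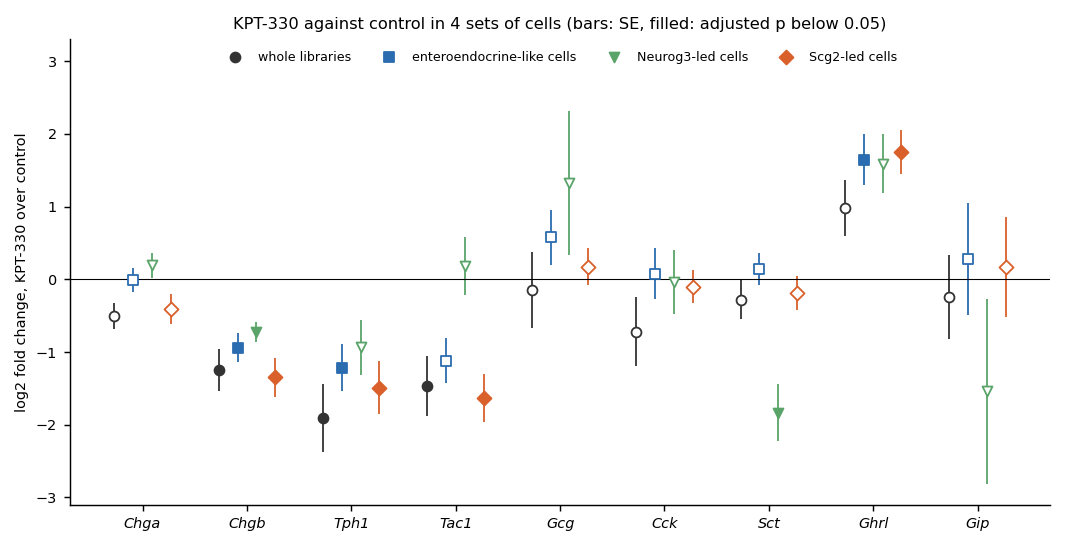
Log2 fold change of KPT-330 over control (y axis) for 9 genes in whole libraries, enteroendocrine-like cells and each of the 2 clusters, with bars for the SE and filled symbols where the adjusted p is below 0.05. Chgb is filled below 0 in all 4 sets of cells, and Ghrl is filled above 0 in enteroendocrine-like and Scg2-led cells.

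Each cluster was then taken alone. In Scg2-led cells of days 3, 4 and 6 (9 libraries), 3 of 9 members were called lower, where 0.914% of 8100 genes were, and 1 higher, where 0.37% were. Chgb was at -1.35 ± 0.26 (adjusted p = 0.00871), Tac1 at -1.63 ± 0.33 (adjusted p = 0.0103), Tph1 at -1.49 ± 0.36 (adjusted p = 0.0361) and Ghrl at +1.75 ± 0.30 (adjusted p = 0.00194). Chgb had 186, 297, 258 and 318 UMIs per 10000 UMIs in the control libraries of days 3, 4, 6 and 6, against 59.4, 49.2, 65.6, 158 and 187 with KPT-330 at days 3, 3, 4, 6 and 6. Within each day the conditions did not overlap, although the higher library of day 6 with KPT-330 passed the control of day 3. The call was lost without the control library of day 3 (-1.16, adjusted p = 0.103) and without day 4 (-1.12, adjusted p = 0.135), each of which leaves that day out.

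Tac1 in Scg2-led cells had 5.28, 10.4, 6.45 and 5.80 UMIs per 10000 UMIs in control and 0.979, 0.912, 0.866, 1.52 and 6.11 with KPT-330. Tph1 had 1.21, 2.20, 1.61 and 2.67 in control and 0.0933, 0.0912, 0, 0.885 and 1.62 with KPT-330. For both genes the last library, replicate 2 of day 6, sat among the controls and the other 4 lay under all of them. Without it, Tac1 was at -2.55 and Tph1 at -2.55, both called, while leaving out other single libraries ended the call of Tac1 in 5 and of Tph1 in 7 of 9 fits. Ghrl had 1.88, 3.58, 12.3 and 12 in control and 3.40, 5.93, 30.3, 43.9 and 14.6 with KPT-330, and was higher with KPT-330 on each of the 3 days. Without replicate 1 of day 6, Ghrl was at +1.41 (adjusted p = 0.0582) and only Chgb of the members was called.

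**Figure D3:**
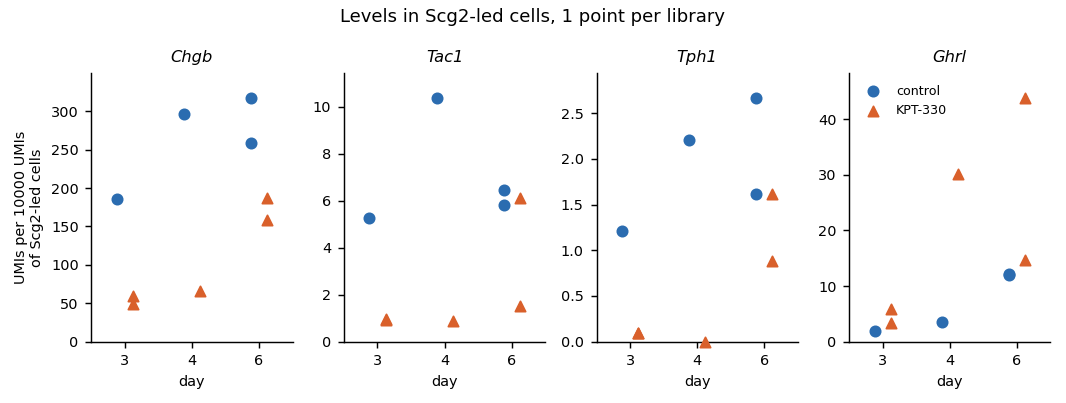
UMIs per 10000 UMIs of Scg2-led cells (y axis, from 0) against day for Chgb, Tac1, Tph1 and Ghrl, 1 point per library (4 control, 5 with KPT-330). Chgb lies lower with KPT-330 on all 3 days and Ghrl higher, while Tac1 and Tph1 are low in 4 of 5 libraries with KPT-330 and reach 6.11 and 1.62 in the fifth.

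In Neurog3-led cells (12 libraries), Chgb (-0.72 ± 0.14, adjusted p = 0.00829) and Sct (-1.84 ± 0.39, adjusted p = 0.0162) were called lower, 2 of 9 members where 0.451% of 7989 genes were. Sct in these cells had 0.302, 1.91, 1.45 and 2.92 UMIs per 10000 UMIs in the late control libraries and 0.179, 0.187, 0 and 0.313 in the 4 with KPT-330 that had enough cells. These values rest on 2 to 6 UMIs in each library with KPT-330 other than that of day 4, where there was none. Ghrl was at +1.59 ± 0.40 (adjusted p = 0.0611) and Chga at +0.19 ± 0.17. Leaving out day 2 ended both calls (adjusted p = 0.160 for Chgb and 0.0768 for Sct). Sct lost its call in 7 of 12 fits that left out a library, those of days 1, 2 and 4 and of replicate 2 of day 6 with KPT-330, and without the control library of day 3 Chgb was not called (adjusted p = 0.0898).

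Outside the enteroendocrine-like clusters, Ghrl (+2.18 ± 0.67, adjusted p = 0.0299) and Gip (+2.42 ± 0.77, adjusted p = 0.0370) were called higher with KPT-330, 2 of 8 members tested where 11.9% of 12283 genes were. Replicate 1 of day 6 had 0.958 UMIs of Ghrl and 2.24 of Gip per 10000 UMIs of these cells, against at most 0.116 and 0.263 in control libraries. In that library 9.93% of thinned cells outside the clusters held Ghrl, 13.0% Gip and 13.6% Cck. Without it neither gene was called, with Ghrl at +1.11 (adjusted p = 0.200) and Gip at +0.99 (adjusted p = 0.357).

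Other enteroendocrine genes were read from the same fit of whole libraries. Of 17 transcription factors of this lineage, 10 were called lower and 0 higher, with a median of -0.65, where 14.2% of all genes were called lower and 14.4% higher. Pax4, which acts downstream of Neurog3, was at -2.70 ± 0.23 (adjusted p = 1.97e-05), Neurog3 at -1.61 ± 0.19 (adjusted p = 0.000181) and Lmx1a, which directs the enterochromaffin fate, at -1.63 ± 0.29 (adjusted p = 0.00177). The late control libraries had 0.201 to 0.322 UMIs of Pax4 per 10000 UMIs and those with KPT-330 0.0179 to 0.0511, and for Lmx1a these ranges were 0.0586 to 0.101 and 0.00894 to 0.0200. Neither pair of ranges overlapped. Pax6 (+0.11), Isl1 (+0.34) and Etv1 (+0.31) were above 0 and not called. Within enteroendocrine-like cells 10 of 16 factors were below 0, with a median of -0.22. There Pax4 was at -2.08, Neurog3 at -1.28 and Lmx1a at -2.04, but Etv1 at +1.09, Isl1 at +1.01 and Pax6 at +0.76. These genes entered the clustering, so their values within the clusters are a description without a test.

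Of 18 granule and prohormone-processing genes, 6 were called lower and 0 higher, with a median of -0.41, against the same 14.2% and 14.4% of all genes. Within enteroendocrine-like cells 8 of 17 were below 0 and their median was +0.03, again as a description. There the 17 ran from Ddc at -0.58 to Scg2 at +0.87. Those called in whole libraries were Ddc, the second enzyme of serotonin synthesis (-0.62 ± 0.09, adjusted p = 0.000712), Cplx2 (-0.67 ± 0.15), Rph3al (-0.46 ± 0.12), Slc18a1, the vesicular monoamine transporter (-0.30 ± 0.09), Syt13 (-0.56 ± 0.19) and Pcsk1n (-0.58 ± 0.21). The processing enzymes Pcsk1 (+0.01 ± 0.16), Cpe (-0.36 ± 0.24) and Pam (-0.18 ± 0.17) were not called. Nor was Pcsk2, which lay above 0 (+1.01 ± 0.39, adjusted p = 0.0651). Of 12 other gut hormones, 6 were tested. Iapp (-1.47 ± 0.29, adjusted p = 0.00328) and Ucn3 (-1.44 ± 0.46, adjusted p = 0.0336) were lower and Gal (+1.11 ± 0.38, adjusted p = 0.0444) higher. These calls rest on low counts, with 2 to 12 UMIs of Gal and 0 to 48 of Ucn3 in a late library, and were lost in 10 of 14 alternative fits for Gal and 8 of 17 for Ucn3. Pyy, which is made beside Gcg in L cells, was at +0.34 ± 0.51.

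Hormones shared cells in pairs. These shares were taken within Scg2-led cells at 2000 UMIs per cell, as the mean over libraries with at least 10 cells on each side, and are a description without a test, since the cells of a library share its depth and its free RNA. Tac1 was found in 83.2% ± 14.0 (SD, 5 libraries) of cells with Tph1 and 20.8% ± 6.5 of cells without it, and was higher in 5 of 5 libraries. Conversely, Tph1 was found in 41.1% of cells with Tac1 and 4.06% of those without. Cells with Tph1 held less Gcg (2.35% against 19.7%), Ghrl (5.86% against 26.0%) and Sct (26.7% against 42.7%), each in 5 of 5 libraries.

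Gcg and Cck shared cells. Cck was found in 85.5% ± 16.1 of cells with Gcg and 24.2% ± 6.7 of cells without it (7 of 7 libraries), and Gcg in 44.4% of cells with Cck and 4.34% of cells without (9 of 9). Ghrl was found in 46.9% of cells with Gcg against 24.5% (7 of 7), and Gcg in 32.9% of cells with Ghrl against 15.6% (8 of 8). Cells with Gip, seen in numbers in 2 libraries, also held Cck (83.0% against 29.1%) and Gcg (41.5% against 11.4%). Sct was found in a larger share of cells with than without Gcg (51.0% against 38.3%), Cck (44.1% against 30.7%) and Gip (69.7% against 44.9%, 2 libraries). Its share was lower with Tph1, as given above, and level for Tac1 (40.7% against 40.3%). For Ghrl it was 28.8% against 41.4%, but 51.4% against 45.2% without thinning.

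Chga was found in 94.8% (Sct) to 100% (Tac1) of cells with a hormone other than Gip. For Gip it was 93.3% ± 9.4 against 98.7% without, over 2 libraries, and 49 of 56 cells with Gip held Chga over all libraries. The share was lower than in cells without the hormone for Gip and Sct and higher for Tac1, Gcg, Cck and Ghrl. The share with Chgb in cells with and without Ghrl changed with the thinning. Chgb was found in 89.0% ± 14.5 of cells with Ghrl and 96.1% ± 7.4 of cells without, and was lower in 6 of 8 libraries and higher in none. Without thinning it was lower in 4 and higher in 1 of 8 libraries, and over all enteroendocrine-like cells without thinning it was 83.4% and 84.2%, lower in 3 and higher in 6 of 10 libraries.

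**Figure D4:**
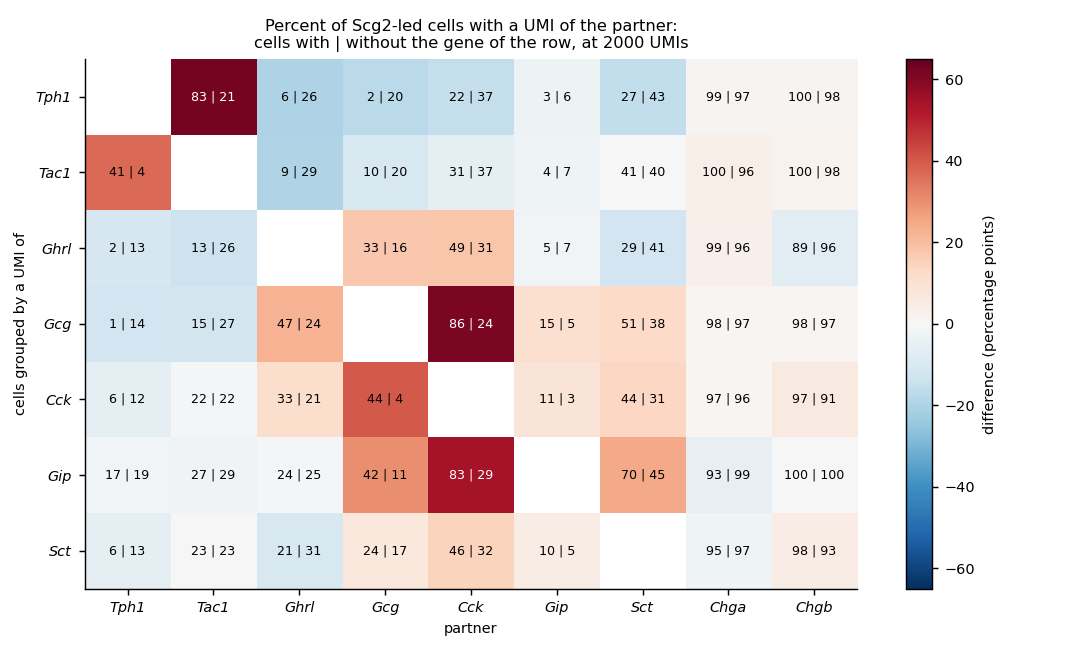
Percent of Scg2-led cells with a UMI of the partner (column) among cells with and without the gene of the row, at 2000 UMIs per cell and averaged over libraries with at least 10 cells on each side, with colour for the difference in percentage points. The pair Tph1 and Tac1 and the pair Gcg and Cck are red in both directions, and Tph1 is blue with Gcg and Ghrl.

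Each Scg2-led cell was then assigned the peptide gene with the most UMIs, if it had at least 3 and no tie. UMIs count molecules from their 3′ ends and were not divided by gene length. Cck led in 163, Tac1 in 80, Sct in 75, Gcg in 71, Ghrl in 59 and Gip in 29 cells, and 418 cells had no leading peptide. Of the cells led by Tac1, 57.5% held Tph1, none held Gcg and 2.5% held Ghrl. Of those led by Gcg, 78.9% held Cck and 46.5% Ghrl, and of those led by Ghrl, 83.1% held Chgb and 1.69% Tph1. Chga was found in 75.9% of the cells led by Gip, and in 95.7% to 100% of the other groups.

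Cells led by Tac1 made up 10.5%, 16.3%, 10.4% and 10.8% of Scg2-led cells in the control libraries of days 3, 4, 6 and 6 and 3.33%, 1.72%, 0%, 1.79% and 10.4% with KPT-330. Cells led by Ghrl made up 1.75%, 1.02%, 6.13% and 7.69% in control and 6.67%, 5.17%, 16.4%, 17.9% and 4.55% with KPT-330. The shares led by Tac1 were below every control in 4 of 5 libraries with KPT-330. These were 1 of 30, 1 of 58, 0 of 67 and 1 of 56 cells, so they rest on few cells. In the fifth library the share was level with the lowest control (16 of 154 cells against 17 of 163). The shares led by Ghrl were higher at day 3 (2 of 30 and 3 of 58 cells against 2 of 114) and day 4 (11 of 67 against 1 of 98). At day 6 they lay on both sides of control. Cells led by Gcg made up 3.68% to 6.92% in control and 3.33% to 17.9% with KPT-330. The mean number of the 6 peptides found per thinned cell was 1.33 to 1.65 in control and 1.00 to 1.89 with KPT-330, and these ranges overlapped.

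**Figure D5:**
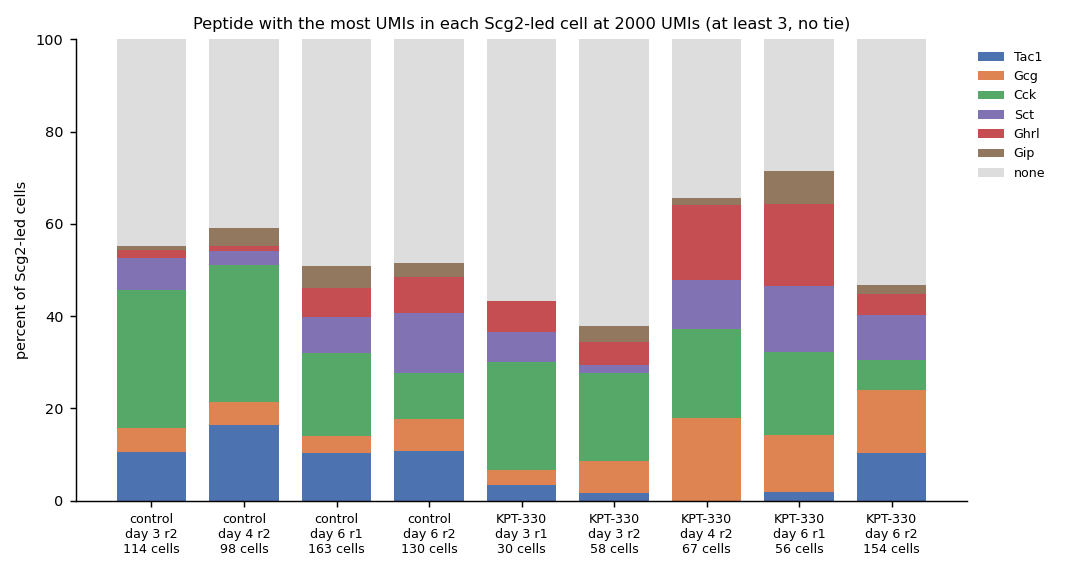
Percent of Scg2-led cells (y axis) by the peptide gene with the most UMIs in the cell at 2000 UMIs, 1 bar per library with its number of cells under it. Cells led by Tac1 make up 10.4% to 16.3% of the control bars and 0% to 3.33% of 4 bars with KPT-330, and 10.4% of the last.

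The genes most like each member were found by the share of enteroendocrine-like cells that held them with and without the member, over libraries with at least 10 such cells and at 2000 UMIs. Both clusters were pooled here, and Scg2, Cpe, Gpr112 and Rbp4 were among the top 10 genes of the Scg2-led cluster. Likeness to a member was therefore not separated from membership of that cluster. For Tph1 they were Scn3a, a sodium channel gene (55.8% against 14.0%, 5 libraries), Lmx1a (30.9% against 1.70%) and Tpbg (32.4% against 3.53%). For Tac1 they were Serpinb1a (76.8% against 48.6%, 7 libraries), Sepp1 (85.5% against 58.8%) and again Scn3a (35.6% against 12.6%). For Gcg they were Rbp4 (58.3% against 18.2%), Gpr112 (61.3% against 22.2%) and Sphkap (53.6% against 16.04%), over 7 libraries.

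Cck shared Gpr112 with Gcg (53.9% against 14.2%, 10 libraries), beside Scg2, and Sct had Cdhr5, Scg2 and Gpr112. For Ghrl they were Scgn, which encodes secretagogin (49.6% against 23.7%, 9 libraries), Nefm (46.0% against 21.6%) and Cdkn1a (50.9% against 28.97%). Both granule genes had Ptprn2, a granule membrane protein gene, as the most alike (82.1% against 38.7% for Chga and 85.2% against 38.5% for Chgb, 11 libraries), followed by Cpe and Map1b for Chga and by Fev and Serpinb1a for Chgb. Gip and Sst were found in too few cells for this measure.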

How the data were processed

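The authors aligned reads to mm10 with STAR in the Drop-seq pipeline and deposited UMI counts per gene and cell for each of 17 libraries. They kept cells with more than 500 genes, fewer than 30000 UMIs and less than 35% mitochondrial UMIs. Cells that were low outliers in housekeeping genes and doublets were also removed before deposit, so no doublet caller was run. The deposited counts were used as they stand, for the 19877 cells that the authors' merged table names.

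The 10 members, the gene lists and the markers were chosen with earlier results of these data known. Cells were clustered in Seurat 5.3.0 with sctransform 0.4.2 (3000 variable genes less 13 hormone and granule genes, 9 components, 20 neighbours, resolution 0.45). Counts were summed per library and cell set, for sets with at least 20 cells in a library, and tested across all genes with edgeR 4.0.16 (quasi-likelihood, TMM, day as a factor, Benjamini-Hochberg adjustment over all genes tested, threshold 0.05). The SE is the log2 fold change divided by the square root of F. Shares of cells were taken after thinning each cell to 2000 UMIs and compared by a two-sided exact sign-flip test over time points. The fits of the single clusters and of cells outside them, the fit without the 3 libraries that stood apart and the share test within enteroendocrine-like cells were chosen after seeing the data. Named genes were the 10 members, up to 3 genes of each list with the smallest p in each direction among those called, and the 3 genes most like each member with at least 100 positive enteroendocrine-like cells, and the other list genes named were chosen after their values were seen. A few genes that these rules name are not reported here. The steps were tested on simulated data. Intervals and floors cover counting error only. Alternatives were DESeq2 1.42.0, other filters, depths and cell sets, and leaving out each library. Leaving out the only library of a condition on a day leaves out that day. R 4.3.3 and Python 3.11.15 were used.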

Additional observations from a re-analysis of the deposited data

Results flagged for a closer look

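Among the 5 libraries of days 3 to 6 with KPT-330, replicate 2 of day 6 stood far above the others for Chga (10.1 UMIs per 10000 UMIs in the whole library), Tph1 (0.252 in the whole library) and Tac1 (1.00 in the whole library and 6.21 in enteroendocrine-like cells). These were 4 of 36 groups examined for a sample far from the others. Chance flags about 1 in 20 groups of like and independent samples. These groups pool days 3, 4 and 6 and share cells, so that rate does not apply to them.

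A signal also lay in data that the comparisons do not use. One barcode of the day 4 library with KPT-330 that the authors did not keep held 86 Sst UMIs, against 10 in all kept cells. It had 4899 UMIs, 2140 genes and 4.86% mitochondrial UMIs, within the stated limits of these 3 measures, and 7 UMIs of Chga and 10 of Chgb. The authors' filters for doublets and for housekeeping genes were not rerun on it.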

How the results depend on the processing

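Of 1142 values under alternatives, 926 kept their direction and side of the threshold or moved little, 87 were weaker, 27 stronger, 38 reversed and 64 moved. The late rise of the 9 members kept its calls in all 13 alternatives, and Chgb kept its call in all 22 for whole libraries. In whole libraries 6 members were called without a count filter and 5 with all barcodes within the limits, and 2252 genes were called without the 3 libraries that stood apart. Gcg changed sign to 0.14 in DESeq2, 0.065 with the replicate block and 0.40 with all barcodes, where Gip was at 0.47. In enteroendocrine-like cells 5 members and 386 genes were called without a count filter, 1 member in DESeq2 and 1 with cells chosen by a marker panel. Chga, near 0 there, changed sign to 0.0052 with DESeq2 size factors, 0.0041 in DESeq2, 0.018 with the replicate block and 0.082 with at least 50 cells a library. With the panel Cck was at -0.35 and Sct at -0.23, and Sct was at -0.024 in DESeq2. DESeq2 called 56 genes for the late against early effect, where Cck was at -0.12 if day 2 counted as late. Thinned to 1000 UMIs, the log2 odds ratio of Chgb was -0.91 (exact p = 0.062, n = 6), and not thinned that of Ghrl was -0.035. Not thinned, 13.5% of cells with Tph1 held Ghrl and 4.92% of cells with Ghrl held Tph1. The causes were not tested.

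Leaving out 1 library at a time, whole libraries gave 1 to 4 members and 2092 to 3969 genes called, with Gcg at -0.48 to 0.37, Gip at -0.71 to 0.28 and Sct at -0.49 to 0.18. Enteroendocrine-like cells gave 1 to 4 members and 119 to 254 genes, with Cck at -0.089 to 0.52, Chga at -0.12 to 0.11, Gip at -0.90 to 0.83 and Sct at -0.082 to 0.59. Scg2-led cells gave 1 to 4 members and 40 to 113 genes, Neurog3-led cells 0 to 3 and 13 to 69, and cells outside both 0 to 3 and 1704 to 3174. The late against early effect gave 0 to 16 genes, the other lists 11 to 24 calls in all, with 1 to 3 for hormones and 3 to 10 for granule genes, and the odds ratio of Chgb ran from -1.14 to -0.84.

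The replicate block called 3 members and 3957 genes in whole libraries and 327 genes in enteroendocrine-like cells, where Tac1 (-1.06) joined the calls. Same-numbered libraries of day 6 correlated at 0.48 over 11548 genes, but there are 2 such pairs and the labels do not say what a number marks, so the libraries share only a number. Sst had 10 UMIs in kept cells and Tph1 1011, and 48.8% of the UMIs of Gip lay in 10 cells.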
